A study of Mus musculus with 8 samples.

Results

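Troponin is the calcium switch of striated muscle. On the thin filament, troponin C binds calcium, troponin I holds contraction off until it does, and troponin T ties both to tropomyosin. Fast fibres, slow fibres and the heart use different genes for these subunits, while adipocytes have no sarcomere, so that troponin transcripts are not part of the usual programme of fat.

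The 7 troponin genes examined were the fast isoforms Tnni2, Tnnt3 and Tnnc2, the slow isoforms Tnni1, Tnnt1 and Tnnc1 (Tnnc1 also serves the heart), and the cardiac isoform Tnnt2. Every probe set annotated to exactly 1 of these genes was taken, which gave 11 of the 34945 probe sets with a single named gene, and 7 of 18193 genes. A probe set is a group of short array probes that together read a transcript. Tnni2 and Tnnt2 had 3 probe sets each and the other 5 genes had 1 each.

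The tissue was subcutaneous fat of 8 male diabetic mice, described as 8 weeks old, with 1 whole-genome Affymetrix expression array per mouse. The 4 NBC mice (numbers 5, 9, 11 and 13) were gavaged with niacin-bound chromium, in which trivalent chromium is complexed with the vitamin niacin. The dose was 10 mg/kg in water, given on 5 days a week for 10 weeks. The stated age of 8 weeks is shorter than these 10 weeks, so it cannot be the age at the end of the gavage. The 4 placebo mice (numbers 6, 8, 10 and 14) received the same volume of water. The sources used here do not name the mouse strain or the cause of the diabetes.

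All arrays had been scaled to a common level, with a trimmed mean signal of 1500.01 on each. Their median signals lay between 286.1 and 329.6 in NBC mice and between 285.5 and 323.3 in placebo mice. Adipocyte transcripts (Adipoq, Fabp4, Lep, Pparg, Cidec and Lipe) were bright on every array, with a summed signal of 386013 to 454567 in NBC mice and 393478 to 474893 in placebo mice, as the tissue label says. The ratio of 3' to 5' signal of the Gapdh control, a sign of RNA integrity, was 1.47, 0.844, 1.28 and 1.11 in NBC mice 5, 9, 11 and 13 and lay between 0.924 and 1.04 in placebo mice. MAS5 signals carry no counts, so that the precision stated here comes from the spread between arrays and their number, 4 in each group.

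The comparison of NBC with placebo mice asked which transcripts of this depot differed after the supplement. All 3 fast troponin genes had far higher mean signals in NBC than in placebo mice, with a ratio of means of 19.5 for Tnni2, 15.9 for Tnnt3 and 18.2 for Tnnc2. The excess lay in NBC mice 5, 11 and 13, while NBC mouse 9 stayed within the placebo range for all 3 genes. The slow and cardiac genes showed no such excess in any mouse. No troponin probe set passed the limma adjusted threshold of 0.05, and neither did any other of the 22519 kept probe sets (0.0%), of which 1400 (6.22%) had an unadjusted p under 0.05.

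Tnni2 encodes the fast inhibitory subunit. Its brightest probe set, 1416889_at, read 15759, 951, 15522 and 12534 in NBC mice 5, 9, 11 and 13. It read 169.6, 485, 1392 and 249 in placebo mice 6, 8, 10 and 14. The lowest of the 3 high NBC mice stood 9.00 times above the highest placebo mouse, and NBC mouse 9 stood at 0.683 times that placebo mouse, so that the groups overlapped. The mean was 11191 ± 6983 in NBC mice and 574 ± 562 in placebo mice (SD, n = 4 each). On the log2(signal + 26) scale, which understates the change of dim transcripts, NBC minus placebo was 4.06 (SE 0.95, limma adjusted p = 0.653).

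The other 2 probe sets of Tnni2 differed from each other. Probe set 1438609_x_at, of a type that may also bind related transcripts, read 7355, 323.5, 9199 and 5325 in NBC mice 5, 9, 11 and 13. It read 110.9, 361, 596 and 122 in placebo mice 6, 8, 10 and 14. It thus followed the brightest probe set, with a log2 difference of 3.67 (SE 1.002, limma adjusted p = 0.718). Probe set 1438608_at, designed from the same transcript record, was dim throughout, at 12.6 to 107.5 in NBC mice and 7.9 to 161 in placebo mice. Its log2 difference was 0.07, with a 95% confidence interval of -1.28 to 1.41 in the fit over all probe sets.

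Tnnt3 encodes the fast tropomyosin-binding subunit and had a single probe set, 1450118_a_at. It read 13220.1, 1078, 13788 and 10881 in NBC mice 5, 9, 11 and 13. It read 349, 727, 1348 and 18.5 in placebo mice 6, 8, 10 and 14. The 3 high NBC mice again stood far above every placebo mouse, NBC mouse 9 lay between placebo mice 8 and 10, and placebo mouse 14 was far below its group. The mean was 9742 ± 5911 in NBC mice and 611 ± 571 in placebo mice (SD, n = 4 each). NBC exceeded placebo by 4.24 log2 units (SE 1.14, limma adjusted p = 0.718). Without placebo mouse 14 the log2 difference of Tnnt3 was 3.23, the lowest value with any mouse left out.

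Tnnc2 encodes the fast calcium-binding subunit. Its probe set 1417464_at read 21720.0, 1292, 21689.7 and 16734 in NBC mice 5, 9, 11 and 13. It read 465, 796, 1773 and 344 in placebo mice 6, 8, 10 and 14. Mice 5 and 11 were nearly equal, and NBC mouse 9 fell below placebo mouse 10. The mean was 15359 ± 9666 in NBC mice and 844 ± 648 in placebo mice (SD, n = 4 each), and the log2 difference was 3.81 (SE 0.91, limma adjusted p = 0.653).

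The promoters of the fast and slow troponin C genes are shown because these are paralogues for the same subunit whose signals behaved differently in the same arrays. They cover the 250 bases before the transcript start in RefSeq, build GRCm38.p6, at chr2:164779735-164779984 on the minus strand for Tnnc2 and at chr14:31208062-31208311 on the plus strand for Tnnc1. Capitals mark matches to the E-box letters CANNTG, which myogenic factors such as MyoD bind, searched on both strands.
Tnnc2: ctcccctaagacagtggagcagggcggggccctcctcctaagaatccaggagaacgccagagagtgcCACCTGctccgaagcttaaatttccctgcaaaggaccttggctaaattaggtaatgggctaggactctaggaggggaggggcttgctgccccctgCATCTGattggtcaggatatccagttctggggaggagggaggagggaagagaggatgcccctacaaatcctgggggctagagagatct
Tnnc1: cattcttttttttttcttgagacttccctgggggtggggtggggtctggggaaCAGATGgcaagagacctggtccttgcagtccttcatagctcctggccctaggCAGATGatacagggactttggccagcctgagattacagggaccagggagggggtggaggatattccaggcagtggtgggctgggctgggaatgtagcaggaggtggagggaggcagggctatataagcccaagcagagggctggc

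Each of these windows held 2 E-box matches, and 66.2% of the 32851 promoter windows of the same length held at least 1. The matches began 183 and 88 bases before the start in Tnnc2 and 197 and 145 bases before it in Tnnc1. The number of E-box matches therefore did not set the pair apart. Their letters differed in part, with CACCTG and CATCTG in Tnnc2 and CAGATG at both places in Tnnc1. CATCTG is CAGATG read on the other strand, so that only CACCTG was found in Tnnc2 alone. Any part of it in the signals was not tested. The MEF2 motif, named for another muscle factor, was found in neither window and in 2.92% of all windows. Windows for 5 of the 7 troponin genes matched by symbol, and those of Tnni2 and Tnnt3 are not shown.

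**Figure D1:**
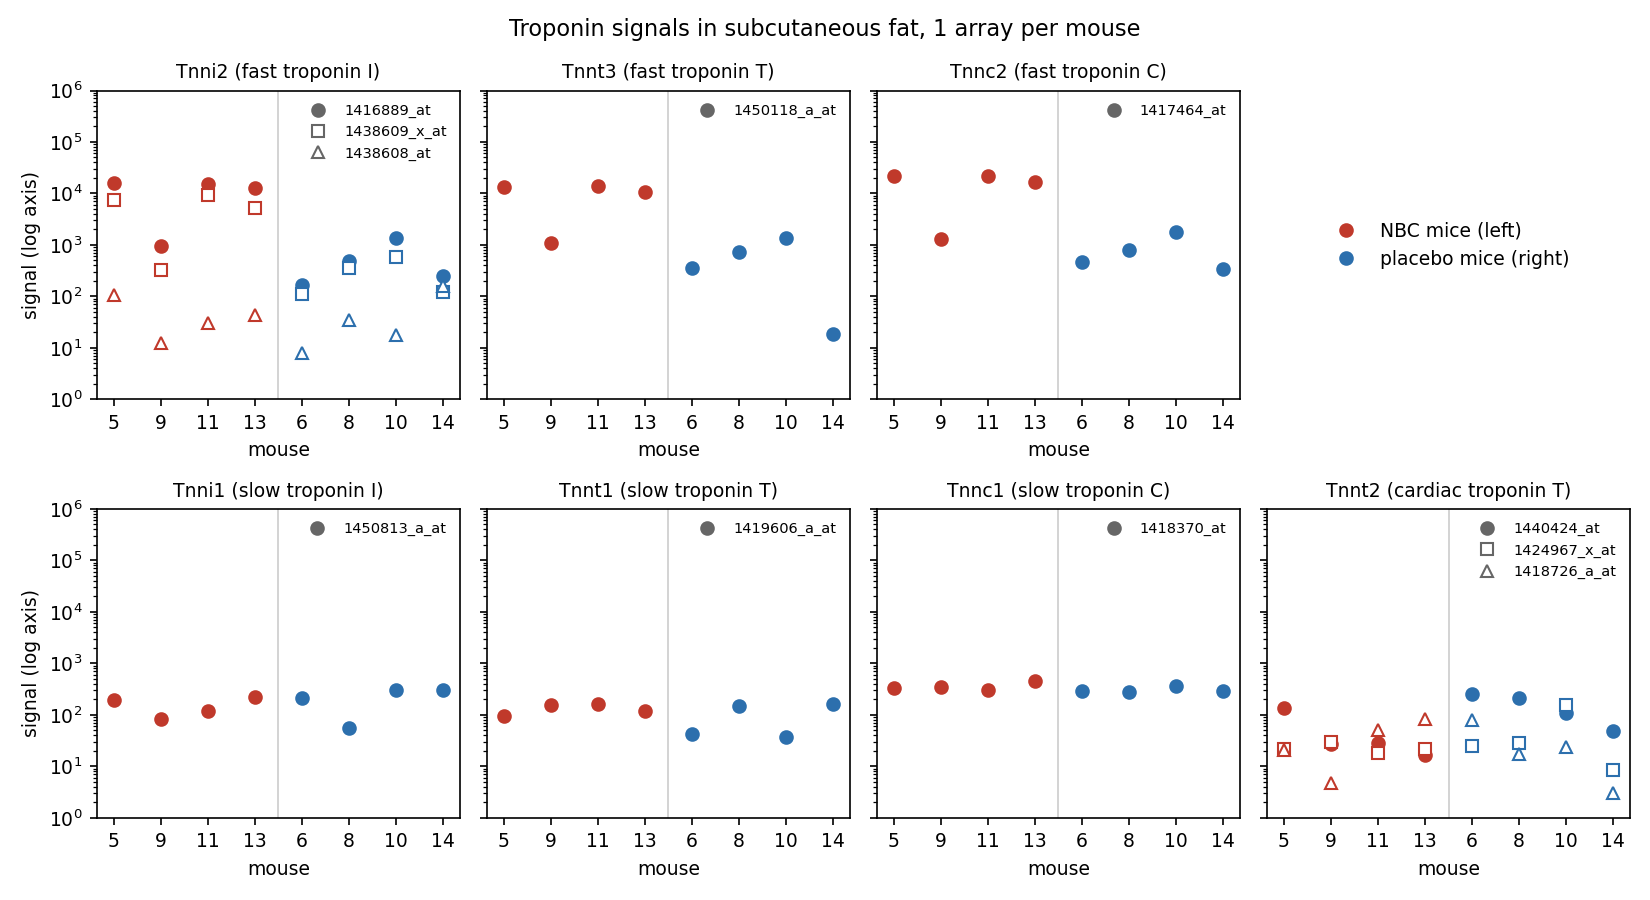
Signal of each troponin probe set on a log axis, by mouse, with NBC mice in red on the left and placebo mice in blue on the right. For Tnni2, Tnnt3 and Tnnc2 the 3 NBC mice 5, 11 and 13 read at least 10881 in the brightest probe set, while NBC mouse 9 and all placebo mice read at most 1773, and the slow and cardiac genes read at most 454 in every mouse.

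Tnnc1, the slow and cardiac partner of Tnnc2, was the only slow member bright enough for the fit of kept probe sets. Its probe set 1418370_at read 327, 341, 310.4 and 454 in NBC mice 5, 9, 11 and 13. It read 289, 284.5, 364 and 293 in placebo mice 6, 8, 10 and 14. The groups overlapped and the 3 mice that were high for Tnnc2 did not stand apart here. The mean was 358 ± 65.0 in NBC mice and 308 ± 37.5 in placebo mice (SD, n = 4 each). The log2 difference was 0.20, with a 95% confidence interval of -0.14 to 0.53 (limma adjusted p = 0.837).

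Tnni1, the slow inhibitory subunit, was dim. Its probe set 1450813_a_at read 197, 82.5, 121 and 223 in NBC mice 5, 9, 11 and 13, and 209, 55.0, 307 and 303 in placebo mice 6, 8, 10 and 14. The log2 difference was -0.31, with a 95% confidence interval of -1.45 to 0.83 in the fit over all probe sets. Tnnt1, the slow tropomyosin-binding subunit, read 95.3, 158, 165 and 121 in NBC mice 5, 9, 11 and 13 with probe set 1419606_a_at. It read 42.0, 148, 37.3 and 163 in placebo mice 6, 8, 10 and 14. Its log2 difference was 0.54, with an interval of -0.41 to 1.48. For both genes the groups overlapped, and the intervals include 0 as well as changes of more than 1 log2 unit in at least 1 direction.

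Tnnt2, the troponin T of heart and embryonic muscle, was read by 3 probe sets that were all below the limit for the kept probe sets. Probe set 1440424_at read 135, 26.6, 28.8 and 16.9 in NBC mice 5, 9, 11 and 13, and 258, 214, 107.7 and 49.5 in placebo mice 6, 8, 10 and 14. Its log2 difference was -1.28, with a 95% confidence interval of -2.53 to -0.02 in the fit over all probe sets (limma unadjusted p = 0.0465, adjusted p = 0.919). The groups overlapped through NBC mouse 5, and signals of this size lie below the array medians. Probe set 1424967_x_at, at a mean of 22.9 in NBC and 53.9 in placebo mice, and 1418726_a_at, at 4.8 to 83.5 in NBC and 3.1 to 79.0 in placebo mice, differed by -0.41 (interval -1.48 to 0.66) and 0.21 (interval -0.93 to 1.36). The placebo mean of 1424967_x_at rested on placebo mouse 10, at 152.9 beside 8.4 to 28.9 in the other placebo mice. Without that mouse its log2 difference was 0.08. The probe sets of Tnnt2 thus went in different directions, and no level of this gene was established.

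Of the 11 troponin probe sets, 5 had a mean at or above the limit for the kept probe sets: 2 of Tnni2 and those of Tnnt3, Tnnc2 and Tnnc1. Probe set 1438609_x_at was kept only through the NBC mice, since its mean in placebo mice was 8.05 log2 units against a limit of 8.23. All 11 were therefore counted in a fit over all 45037 probe sets. There, 0 of the 11 passed the limma adjusted threshold, as did 0.0% of all probe sets. At an unadjusted p under 0.05, 4 of the 11 were higher in NBC (background 2.8%) and 1 was lower (background 2.52%). The 4 were all fast, and the median log2 difference was 3.81 over the 5 fast, 0.20 over the 3 slow and -0.41 over the 3 cardiac probe sets, beside -0.003 over all probe sets. In 0 of the 11 were the groups free of overlap, against 3.34% of all probe sets.

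**Figure D2:**
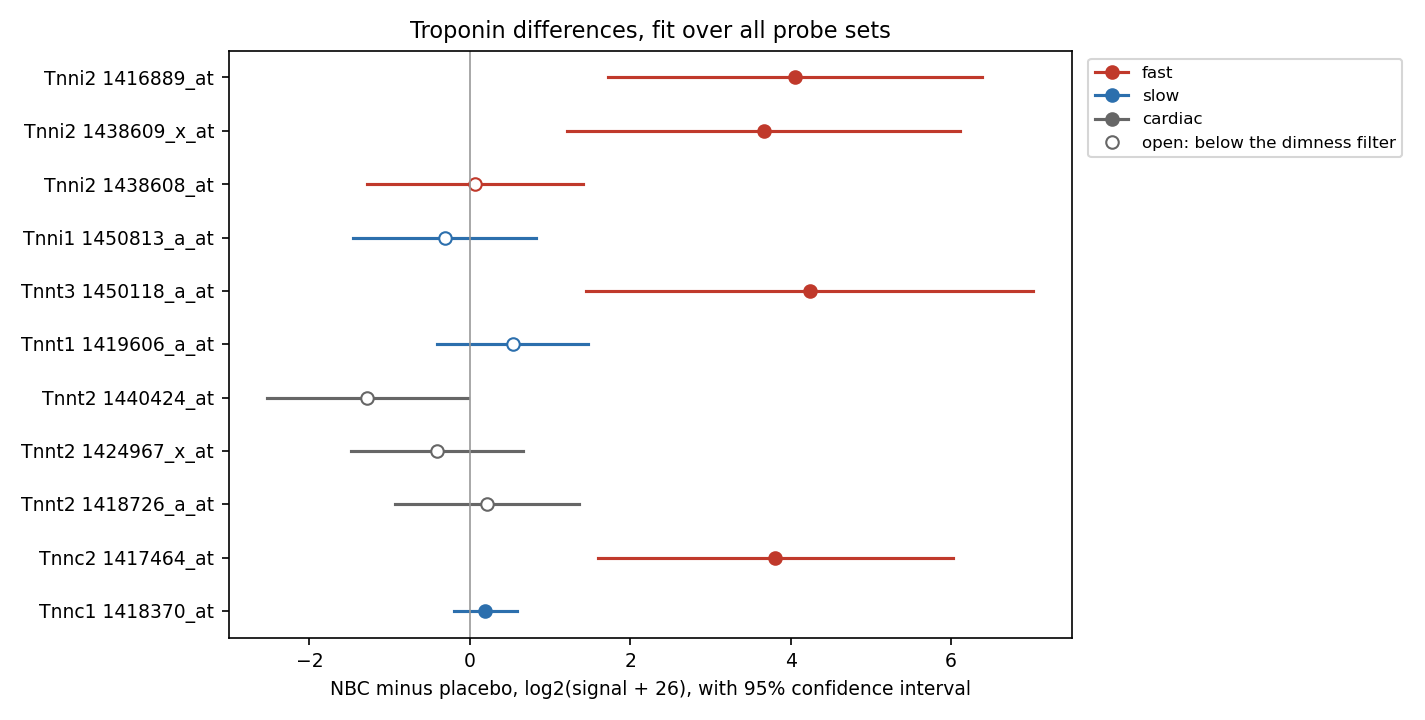
Difference of NBC minus placebo on the log2(signal + 26) scale for the 11 troponin probe sets, with 95% confidence intervals from limma over all 45037 probe sets. Of the 5 fast probe sets (red), 4 lie between 3.67 and 4.24 with intervals above 0, while the slow (blue) and cardiac (grey) ones lie between -1.28 and 0.54, and open circles mark probe sets below the limit for the kept ones.

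Whether the fast and slow isoform of a subunit moved differently was tested within the arrays. For each mouse the log2 value of the slow gene was subtracted from that of the fast gene, which any scaling factor of the array leaves nearly unchanged, and the group means were compared. The fast gene moved further than the slow one by 4.37 log2 units for troponin I, 3.70 for troponin T and 3.62 for troponin C. Relative to the placebo mean, the troponin I difference was 5.09, 2.11, 5.67 and 4.601 in NBC mice 5, 9, 11 and 13, and -1.32, 1.60, 1.03 and -1.31 in placebo mice 6, 8, 10 and 14. All 4 NBC mice stood above all 4 placebo mice for the troponin I difference, NBC mouse 9 included. Tnni2 alone did overlap, at 951 in NBC mouse 9 and 1392 in placebo mouse 10. The separation arose with the dim Tnni1, at 82.5 and 307 in these mice. The exact permutation p of the troponin I difference (two-sided) was 0.0286, the smallest that 4 against 4 allows. After Benjamini-Hochberg adjustment over the 3 pairs it was 0.0571 and missed the threshold.

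The troponin T difference, on the same relative scale, was 5.04, 0.85, 4.45 and 4.48 in NBC mice 5, 9, 11 and 13, and 0.73, 0.38, 2.71 and -3.82 in placebo mice 6, 8, 10 and 14. The troponin C difference was 4.83, 0.73, 4.90 and 4.01 in NBC mice 5, 9, 11 and 13, and -0.48, 0.29, 1.09 and -0.90 in placebo mice 6, 8, 10 and 14. In both, NBC mouse 9 lay below placebo mouse 10. Each had an exact permutation p of 0.0571, unadjusted and adjusted. Without NBC mouse 9 the difference was 5.12 for troponin I and 4.58 for troponin C, each with an adjusted exact permutation p of 0.0429, and 4.66 for troponin T (adjusted 0.0571). The low value of that mouse was known, and without it no NBC mouse overlapped the placebo mice for any subunit. For troponin I and C the unadjusted p was then the smallest that the remaining mice allow, so that these values describe those mice only. The slow probe sets of troponin I and T were dim, so that part of the spread of these differences is that of the dim signals.

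**Figure D3:**
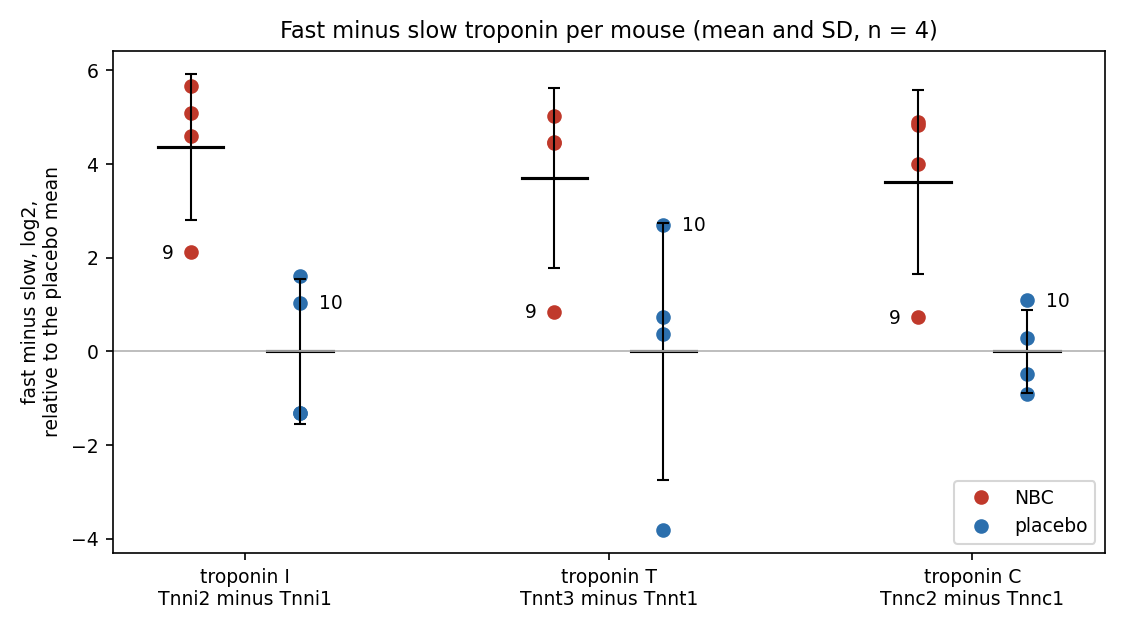
Log2 value of the fast gene minus that of the slow gene per mouse, relative to the placebo mean, for troponin I, T and C, with NBC mice (red, left) and placebo mice (blue, right) and the mean and SD of each group (n = 4). NBC mouse 9, at 2.11, 0.85 and 0.73, is the lowest NBC mouse in each pair, and placebo mouse 10 lies above it for troponin T (2.71) and troponin C (1.09).

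The order of the mice was nearly the same for the fast genes. In Tnni2 (1416889_at), Tnnt3 and Tnnc2 the ranks 1 to 3 fell to NBC mice 5, 11 and 13, rank 4 to placebo mouse 10, rank 5 to NBC mouse 9 and rank 6 to placebo mouse 8. Placebo mouse 10 stood 2.87 times above the next placebo mouse for Tnni2, 1.85 times for Tnnt3 and 2.23 times for Tnnc2. The spread within placebo mice was therefore wide too, and neither group was the wider one in all 3 genes. The highest over the lowest signal was 16.6 in NBC mice and 8.21 in placebo mice for Tnni2, 12.8 in NBC mice and 72.9 in placebo mice for Tnnt3, and 16.8 in NBC mice and 5.15 in placebo mice for Tnnc2. The 72.9 for Tnnt3 rests on placebo mouse 14, whose 18.5 lay below the 10th percentile of its array (24.6).

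Leaving out single mice moved these values. Without NBC mouse 9 the log2 difference was 5.03 for Tnni2 1416889_at (limma adjusted p = 0.0416), 4.76 for Tnni2 1438609_x_at (0.0318) and 4.79 for Tnnc2 (0.0235), and all 3 probe sets passed. Tnnt3 reached 5.12 there and missed the threshold (adjusted p = 0.210). In that fit 19 of 22519 kept probe sets passed (0.0844%), 3 of them troponin probe sets. These calls depended on the filter, which 1438609_x_at had passed only through the NBC mice. In the fit over all 45037 probe sets without NBC mouse 9, chosen after seeing the data, 11 passed (0.0244%) and 0 of them were troponin probe sets, with a limma adjusted p of 0.138 for Tnni2 1416889_at, 0.111 for Tnni2 1438609_x_at and 0.0920 for Tnnc2. The mouse was left out as 1 of 8 in turn, but its low value was known, so the calls describe the other 7 mice. Without placebo mouse 10 the ratio of means was 37.1 for Tnni2, 26.7 for Tnnt3 and 28.7 for Tnnc2. With any single mouse left out the log2 difference of NBC minus placebo stayed at or above 3.66 for Tnni2 1416889_at, 3.23 for Tnnt3 and 3.44 for Tnnc2, and for Tnnc1 it lay between 0.08 and 0.27.

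**Figure D4:**
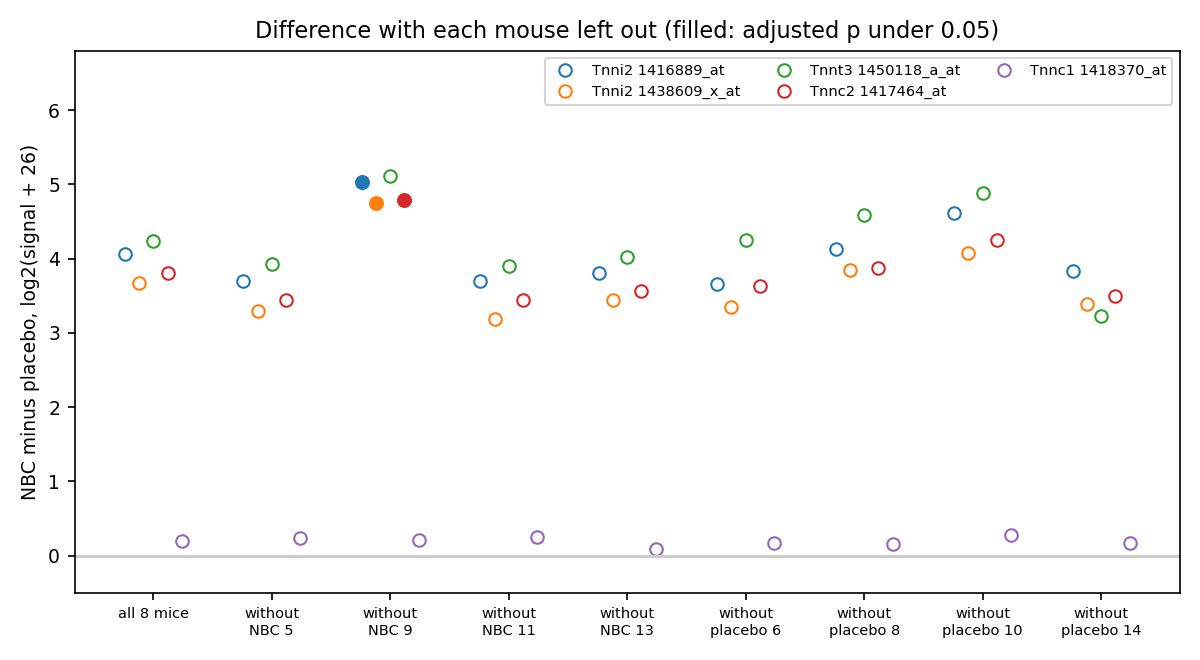
Difference of NBC minus placebo on the log2(signal + 26) scale for the 5 kept troponin probe sets with all 8 mice and with each mouse left out in turn. Filled points, with a limma adjusted p under 0.05, occur only without NBC mouse 9 (5.03, 4.76 and 4.79) in the fit of the 22519 kept probe sets, and Tnnc1 stays between 0.08 and 0.27.

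The genes whose pattern over the 8 mice was nearest to the mean of the 3 fast troponins were found among 11658 other named genes by the root mean square difference of their centred log2 values. The nearest was Mylpf, the fast regulatory myosin light chain (0.28 log2 units), followed by Ckm, muscle creatine kinase (0.36), Actn3, the alpha-actinin of fast fibres (0.36), and Pvalb, a calcium buffer of fast fibres (0.55). Myh4, the fast 2B myosin heavy chain (0.56), Mybpc2, the fast myosin-binding protein C (0.71), Atp2a1, the fast calcium pump (0.72), and Pygm, muscle glycogen phosphorylase (0.96), came next. The search covered kept probe sets only. In placebo mice Mybpc2 read 10.8 to 169.9 and Pygm 32.1 to 243.9, below the limit signal of 275. Both were thus kept only through the NBC mice. The median over all genes was 2.49. Tnnc2, Tnni2 and Tnnt3 lay 0.29, 0.39 and 0.62 from their own mean, so that Mylpf was nearer to it than each of the genes it was made from. The profile of Tnnc1 was nearly flat, and the genes nearest to it were Macroh2a1, a histone variant gene (0.08), and the pseudogene Hmga2-ps1 (0.08), beside a median of 0.29 over all genes.

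**Figure D5:**
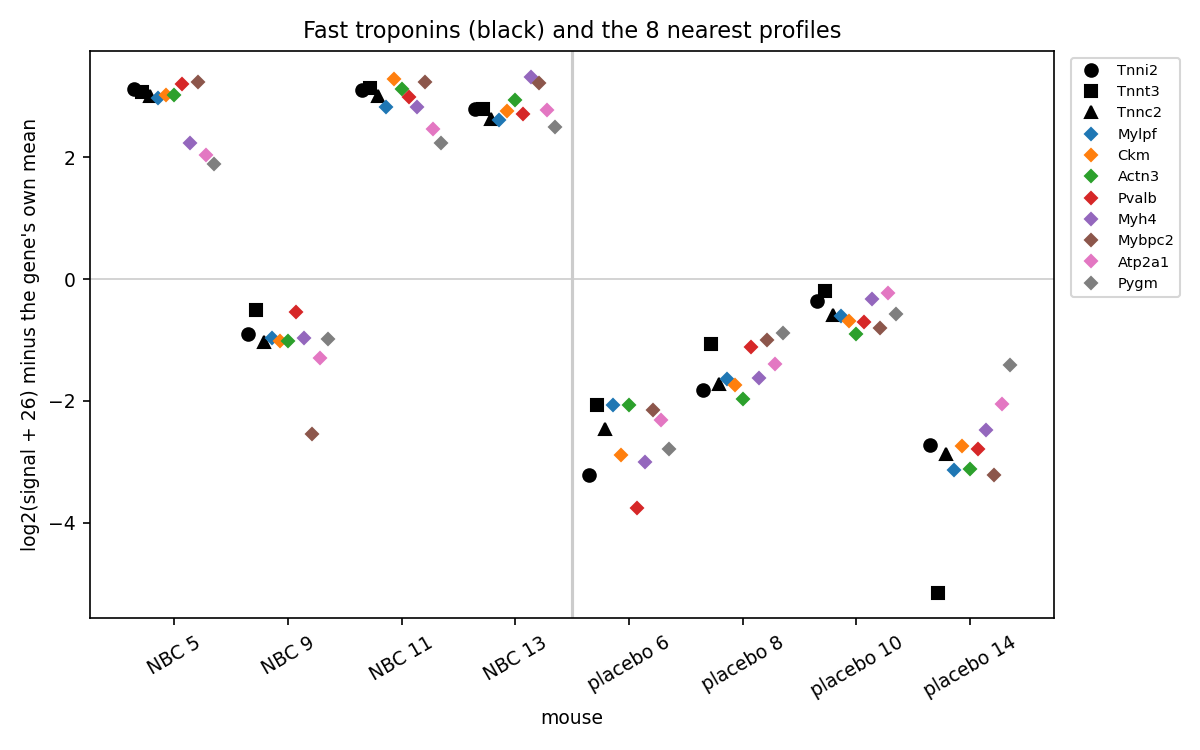
Log2(signal + 26) minus the gene's own mean over the 8 mice, for the 3 fast troponins (black) and the 8 genes with the nearest patterns (coloured), NBC mice on the left and placebo mice on the right. Mice NBC 5, 11 and 13 stand above 0 for all 11 genes and the other 5 mice below 0, with Tnnt3 in placebo mouse 14 as the lowest point.

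The thin and thick filament genes that work with troponin were described with 27 genes, all measured. Of these 21 had a log2 difference above 0, with a median of 0.78, beside 48.5% above 0 and a median of -0.01 over all named genes. At an unadjusted limma p under 0.05, 12 of 27 were higher in NBC (background 2.23% of named genes) and 1 was lower (background 2.03%), and 0 passed the adjusted threshold. The 4 with the smallest p were Actn3 (log2 difference 4.03), the thin filament ruler Neb (2.34), Mylpf (3.72) and the actin nucleator Lmod2 (1.80). Neb read 340.4, 99.8, 482 and 563 in NBC mice 5, 9, 11 and 13 and 5.3 to 95.5 in placebo mice. Its groups did not overlap (background 3.34% of all probe sets), but its signals were dim. Lmod2 was also dim, at 41.3 to 215 in NBC mice and 6.3 to 56.0 in placebo mice, with overlap. The lower gene was Myl2, the slow and cardiac regulatory light chain, at 52.7 to 124 in NBC mice and 152.5 to 222 in placebo mice (log2 difference -0.86). It too was dim.

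Among 18 genes of muscle calcium release and uptake, which raise and clear the calcium that troponin C senses, 12 lay above 0 (48.5% of all named genes), with a median log2 difference of 0.69. At an unadjusted p under 0.05, 6 were higher (background 2.23%) and 1 was lower in NBC (background 2.03%), and 0 passed the adjusted threshold. Pvalb (4.18), the calsequestrin of fast fibres Casq1 (1.91) and the sarcoplasmic reticulum protein Srl (1.16) were the highest-ranked of those higher. Sarcolipin, Sln, an inhibitor of the calcium pump, was the lower one, at 9.4 to 40.2 in NBC mice and 37.6 to 150.1 in placebo mice (log2 difference -1.41). Its groups overlapped, and it was below the limit for kept probe sets. In NBC mice 5, 9 and 11 it read 9.4, 16.1 and 10.8, below the 10th percentile of their arrays (24.8, 26.3 and 24.2).

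Marker lists of fibre and cell types were read in the same way, and their part in the troponin result was not tested. All 11 fast fibre markers lay above 0 (48.5% of all named genes), with a median log2 difference of 2.99. Of these 9 had an unadjusted p under 0.05 and were higher in NBC (background 2.23%), and 0 passed the adjusted threshold. Their summed signal was 90776, 9828, 99204 and 95314 in NBC mice 5, 9, 11 and 13, and 5673, 6972, 12325 and 4874 in placebo mice 6, 8, 10 and 14. As for the troponins, NBC mice 5, 11 and 13 stood above all others and NBC mouse 9 below placebo mouse 10. All fast fibre markers but Eno3 were also in the filament or calcium lists above, so that the counts of these lists are not independent. Mylpf, Actn3, Pvalb, Myh4, Mybpc2 and Atp2a1 were also among the nearest patterns. Of 10 slow fibre markers 3 lay above 0 (48.5% of all named genes), with a median of -0.07. At an unadjusted p under 0.05, 0 of them were higher in NBC (background 2.23%) and 1 was lower (background 2.03%), and 0 passed the adjusted threshold. The lower one was the dim Myl2, without overlap (background 3.34% of all probe sets). The summed signal of the 10 markers was 40327 to 46064 in NBC mice and 39199 to 41445 in placebo mice. Most of that sum came from Tpm3 and Atp2a2, which many tissues express, while the slow myosin Myh7 averaged 77.1 ± 34.0 in NBC mice and 145 ± 80.3 in placebo mice (SD, n = 4 each). In bulk tissue, more cells of a type and more RNA per cell cannot be told apart.

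Of the 8 cardiac markers 0 lay above 0 (48.5% of all named genes), and 7 were below the limit for kept probe sets. At an unadjusted p under 0.05, 0 of them were higher in NBC (background 2.23%) and 1 was lower (background 2.03%), and 0 passed the adjusted threshold. The 8 satellite cell and myogenic markers, among them Pax7, Myod1 and Myog, were all below that limit, with no signal above 410, and 3 of 8 lay above 0. The 8 smooth muscle markers had a summed signal of 59184 to 95824 in NBC mice and 71211 to 115756 in placebo mice, and 0 had an unadjusted p under 0.05. Skin and epithelial markers summed to 2338 to 3674 in NBC mice and 2118 to 3279 in placebo mice (5 of 8 above 0), and the 4 measured nerve markers to 28570.1 to 35799 in NBC mice and 27837 to 37359 in placebo mice (3 of 4 above 0). All 6 fibroblast markers lay above 0 (48.5% of all named genes), with a median of 0.19, and 0 had an unadjusted p under 0.05. Of the 6, 2 (Col1a1 and Col1a2) were higher in NBC without overlap (background 3.34% of all probe sets). Their list summed to 209330 to 262117 in NBC mice and 184719 to 207308 in placebo mice. NBC mouse 9 lay between the other NBC mice for the fibroblast sum (239250), unlike for the fast troponins. Of the 6 measured adipocyte markers 0 lay above 0, with a median of -0.05, and 0 had an unadjusted p under 0.05. Among them Lipe was lower in NBC without overlap (background 3.34% of all probe sets), at 33528 to 35969 in NBC mice and 36449 to 42740 in placebo mice. Plin1 and Cfd of that list had no probe set naming them alone. Of the 7 brown adipocyte markers 3 lay above 0, with sums of 7027 to 11467 in NBC mice and 7889 to 14393 in placebo mice. At an unadjusted p under 0.05, 1 of the 7 was higher in NBC (background 2.23% of named genes) and 2 were lower (background 2.03%). Of the 7, 0 passed the adjusted threshold. These genes were named after their values were seen. The higher one was Dio2, at 357 ± 93.6 in NBC mice and 209 ± 77.7 in placebo mice (SD, n = 4 each). Its log2 difference was 0.73, with overlap, and it was below the limit for kept probe sets. The lower ones were the lipid droplet gene Cidea and Ucp1, the uncoupling protein of brown fat. Cidea was at 813 ± 92.8 in NBC mice and 1671 ± 374 in placebo mice, without overlap (background 3.34% of all probe sets). Ucp1 was at 1228 ± 595 in NBC mice and 3260.3 ± 1242 in placebo mice, with overlap (SD, n = 4 each). The Gapdh 3' to 5' ratio was highest in NBC mice 5, 11 and 13, the mice with high fast troponin signals. The same ratio of Actb was 2.10, 1.51, 1.82 and 1.56 in NBC mice 5, 9, 11 and 13 and 1.57, 1.51, 1.71 and 1.74 in placebo mice 6, 8, 10 and 14, so that NBC mouse 13 was not high by that control. The part of either ratio in the result was not tested.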

How the data were processed

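Total RNA of the subcutaneous fat was biotin-labelled and hybridised to 1 array per mouse, per the labels. The authors deposited linear signal intensities, 1 for each probe set of each mouse. MAS5 is named in the submitters' processing notes, without a version, and no rescaling was applied here. MAS5 sets matched against mismatched probes, which leaves dim transcripts noisy. The table held 45101 probe sets, of which 64 controls were not tested. The platform annotation named 1 gene for 34945, several for 932 and none for 9160.

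The analysis scale was log2(signal + 26). The offset 26 was taken at the 10th percentile over all arrays. Probe sets with a mean at or above the median (a signal of 275) were kept, 22519 in all, and compared with limma 3.58.1 in R 4.3.3 without covariates, with Benjamini-Hochberg adjustment and a threshold of 0.05. Other offsets, filters, quantile normalization, variance models and array weights were tried, and each mouse was left out in turn. The fit was tested on simulated data. Fast minus slow differences used an exact permutation test over all 70 splits. Each gene of a list stood for its brightest probe set, in the fit over all 45037 probe sets. All 11 troponin probe sets and the 4 list members with the smallest p were named, with the 8 nearest patterns and the first 2 of 4 nearest to Tnnc1. Members and lists were chosen with earlier results of these data known. The sources used here name no slide or scan batch.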

Additional observations from a re-analysis of the deposited data

Results flagged for a closer look

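Among the 28 sets of 4 values examined (11 probe sets and 3 fast minus slow differences, in each group), 6 had a mouse that stood apart from its group, where chance alone gives about 5% of sets. NBC mouse 9 was far below the other NBC mice for Tnni2 (950.9 with 1416889_at and 323.5 with 1438609_x_at), Tnnt3 (1078.2) and Tnnc2 (1292.2), and for Tnnt3 minus Tnnt1 (0.85 log2 units relative to the placebo mean). These 5 sets read related transcripts of the same mouse and are not independent. Placebo mouse 10 was above the other placebo mice for Tnnc1 (363.6), and it was also the highest placebo mouse for the 3 fast genes.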

How the results depend on the processing

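Over the alternatives tried, 198 of 206 recomputed values kept their direction and their side of the threshold, or moved by less than the spread between mice, and 8 gained a call, all without NBC mouse 9. With no filter and without NBC mouse 9, an alternative chosen after seeing the data, 11 probe sets passed and 0 of them were troponin probe sets. With 1 mouse left out, the number of probe sets past the adjusted threshold ranged from 0 to 19 and the number of troponin probe sets among them from 0 to 3. The fast minus slow difference ranged from 3.93 to 5.12 for troponin I, 2.43 (without placebo mouse 14) to 4.66 for troponin T and 3.19 to 4.58 for troponin C. Under the other offsets, filters, scaling, variance models and array weights, with all 8 mice, these counts were 0. A filter at the 75th percentile left no value for Tnni2 1438609_x_at and Tnnc1. With the mean of all probe sets in place of the brightest, the troponin I difference was 2.91 (adjusted exact permutation p = 0.0571), a mean that includes the dim probe set 1438608_at. With an offset of 16 the adjusted exact permutation p of each pair was 0.0857. Differences of the 6 troponin probe sets below the limit depend on dim signals, and 3 of them took both signs when a mouse was left out. These were Tnni2 1438608_at (-0.26 to 0.58), Tnnt2 1424967_x_at (-0.71 to 0.08) and Tnnt2 1418726_a_at (-0.08 to 0.56). No paired analysis was possible because no mouse number occurs in both groups.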

Other observations

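In the RefSeq annotation 3 pairs of an inhibitory and a tropomyosin-binding troponin gene are neighbours, while Tnnc1 and Tnnc2 lie on other chromosomes. Tnnt1 lies next to the cardiac Tnni3 on chromosome 7. Tnni2 and Tnnt3 are separated on chromosome 7 by 1 protein-coding gene, Lsp1, a leukocyte actin-binding protein gene, and Tnni1 and Tnnt2 on chromosome 1 by Lad1, which encodes ladinin, a protein of epithelial basement membranes. Lsp1 (1417756_a_at) read 5386, 4625, 3361 and 3265 in NBC mice 5, 9, 11 and 13 and 3069 to 4011 in placebo mice, with overlap and a log2 difference of 0.21 (SE 0.19), and did not follow its neighbours. Lad1 (1418449_at) was dim, at 106.1, 356, 165 and 194 in NBC mice 5, 9, 11 and 13 and 10.5 to 48.4 in placebo mice. It had no overlap between the groups (background 3.34% of all probe sets), with a log2 difference of 2.04 (SE 0.36, limma adjusted p = 0.459 over all probe sets). Lad1 was highest in NBC mouse 9, the mouse in which the fast troponins were low. Both were named for their position.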
